A study of Mus musculus with 48 samples.

Results

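Of the 24421 genes counted in the hippocampal Cornus Ammonis (CA) region, 38 encode the receptors for serotonin (14 genes), noradrenaline and adrenaline (9), dopamine (5), acetylcholine of the muscarinic class (5) and histamine (4), together with *Slc18a2*, the transporter that loads monoamines into synaptic vesicles. They were chosen by symbol alone: the *Htr*, *Drd*, *Adra*, *Adrb*, *Chrm* and *Hrh* families and *Slc18a2*. RNA came from 48 male mice labelled 8 weeks old, each giving 1 library, in 8 groups. In the Glu-CB1 line (strain nex-cre x CB1f/f), *CB1f/f* mice were crossed with mice expressing Cre recombinase under control of *nex1* elements, so that the cannabinoid receptor CB1 (gene *Cnr1*) is deleted in glutamatergic neurons; this line gave 5 CB1-WT and 7 Glu-CB1-KO mice in the basal state (home cage) and again 5 and 7 after 5 min in an open field, a mild stimulus. In the GABA-CB1 line (strain dlx5/6-cre x CB1f/f), Cre under *dlx5/6* elements deletes CB1 in GABAergic neurons; this line gave 6 basal CB1-WT and 6 basal GABA-CB1-KO mice, and 7 and 5 after the open field. CB1-WT mice are littermates of the same cross, and the labels give them the same strain name as the KO mice, so that floxed or Cre alleles they may carry are not specified.

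These receptors receive the ascending modulatory systems of the brain. Serotonin, noradrenaline, dopamine and histamine reach the hippocampus in axons whose cell bodies lie in the raphe nuclei, locus coeruleus, midbrain and hypothalamus, and acetylcholine arrives mainly from the medial septum. Apart from *Htr3a* and *Htr3b*, which encode subunits of a cation channel, all the receptors couple to G proteins: those encoded by *Htr2*, *Adra1*, *Hrh1*, *Chrm1*, *Chrm3* and *Chrm5* genes act on phospholipase C, those of *Htr4*, *Htr6*, *Htr7*, *Drd1*, *Drd5*, *Adrb* and *Hrh2* raise cyclic AMP, and those of *Htr1*, *Drd2*, *Drd3*, *Drd4*, *Adra2*, *Chrm2*, *Chrm4*, *Hrh3* and *Hrh4* lower it. CB1 itself couples to the same inhibitory G proteins and sits on axon terminals, as do several of these receptors (*Adra2a*, *Htr1b* and *Hrh3* products act as presynaptic receptors in many pathways).

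Between 25892654 and 34091080 reads were counted per library. *Cnr1* separated the genotypes in every group: it ran from 310.7 to 411.6 counts scaled to library size (CPM) over all CB1-WT mice, from 204.1 to 249.4 CPM when deleted in glutamatergic neurons and from 100.3 to 158.4 CPM when deleted in GABAergic neurons. The study's text gives the sizes of both GABA-CB1 open field groups the other way round, and the labels were used here. *Cnr1* in each of these 12 mice lay on the side of its label, at 336.2 to 394.0 CPM in CB1-WT and 100.3 to 155.3 CPM in KO mice. The summed level of choroid plexus and ependyma markers ran from 49.8 to 4080 CPM, with GABA-CB1-KO open field replicate 4 at the top. A set of 17 libraries stood apart from the other 31 by a low level of *Xkr4* (at most 13.6 CPM against at least 19.1) and along the main axis of variation (17.5% of the variance). It held between 1 and 3 mice of each group except Glu-CB1-KO after the open field, where it held 5 of 7. In bulk tissue, fewer cells of a type and less RNA per cell cannot be told apart.

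Levels differed widely between these genes. Per kilobase of exon (RPKM, averaged over the 48 mice), *Chrm1*, the main muscarinic receptor of pyramidal cells, was highest at 49.8 RPKM, followed by the noradrenaline receptor *Adra1d* (23.1), *Chrm3* (22.1), the histamine autoreceptor gene *Hrh3* (16.5), *Htr2c* (13.5) and *Htr1a* (10.3). *Chrm4* (7.96 RPKM), *Htr3a* (7.80), *Drd5* (6.89) and *Adra2c* (4.74) formed the next set. Among dopamine receptors *Drd5* was far above *Drd1* (0.903 RPKM) and *Drd2* (0.816). Among beta-adrenergic receptors *Adrb1* (3.503 RPKM) was above *Adrb3* (0.212). *Slc18a2* itself was low, at 0.909 RPKM or 3.46 CPM.

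**Figure D1:**
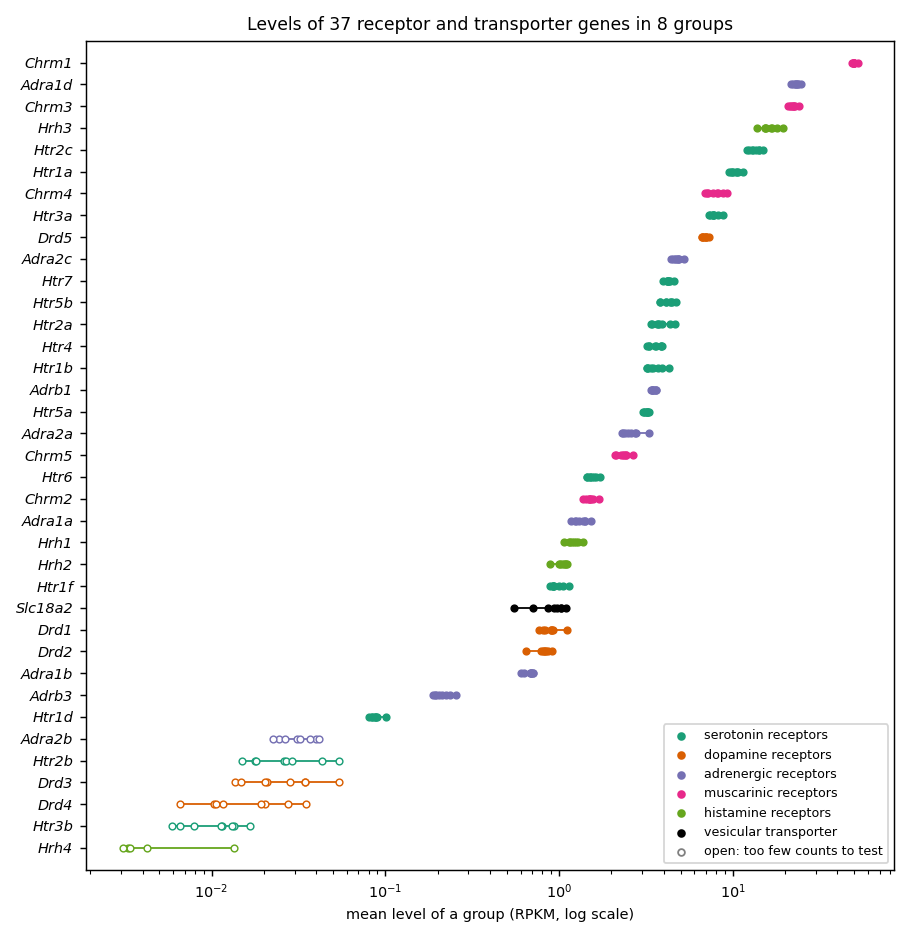
Mean level of 37 of the 38 genes (rows) in each of the 8 groups (points; RPKM on a log axis), colored by receptor family; open points mark the 6 genes with too few counts to test, and group means of 0 are not drawn. *Chrm1* leads at 49.8 RPKM over all mice, and the 8 group means of most genes lie close together, with *Slc18a2* among the widest of the tested genes.

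In 32 of the 38 genes the counts were high enough for a test over the 8 groups. The other 6 were *Adra2b* (0 to 12 counts per library, 45 of 48 libraries with a count), *Htr2b* (0 to 6 counts, 37 libraries), *Drd3* (0 to 4, 35 libraries), *Htr3b* (0 to 3, 28 libraries), *Drd4* (0 to 3, 26 libraries) and *Hrh4*, the histamine receptor of immune cells, with 8 counts in all, in 7 libraries. No comparison is made for these 6. *Htr1d* was kept at 2 to 15 counts per library, and it was too low for a test in 3 of the 4 KO-WT comparisons within a state. Exons of *Chrm2*, *Chrm4* and *Htr1b* overlap genes on the opposite strand (*9330158H04Rik*, *Mdk* and *D430036J16Rik*), and whether the library kit kept strand is not given in the sources used here, so their values may hold reads of those genes.

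Spread between mice set what could be seen. Within groups, the coefficient of variation was 3.95% for *Chrm1*, 7.06% for *Adra1d*, 7.13% for *Adrb1* and 7.90% for *Drd5*, but 19.4% for *Slc18a2*, 23.8% for *Drd1* and 37.6% for *Htr1d*. Over the 32 tested genes, the highest group mean exceeded the lowest by a median ratio of 1.23. The ratio was largest for *Slc18a2*, at 1.99, followed by *Drd1* (1.44), *Adra2a* (1.42), *Hrh3* (1.41) and *Drd2* (1.40). It was smallest for *Adrb1* (1.07) and *Chrm1* (1.07).

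*Slc18a2* was lower in GABA-CB1-KO mice than in their CB1-WT littermates. In the basal state it had 3.24 CPM in the lowest CB1-WT mouse, 3.675 at the median and 4.77 in the highest (n = 6, 104 to 155 counts). In GABA-CB1-KO mice it had 1.37 CPM in the lowest, 2.09 at the median and 2.67 in the highest (n = 6, 33 to 83 counts). The 2 groups did not overlap. The log2 difference was -0.88 (SE 0.14, Benjamini-Hochberg adjusted p = 0.0171 by the quasi-likelihood test of edgeR), making it the only one of the 31 genes tested there to pass, beside 0.245% of all genes (7 of the 31, and 8.16% of all genes, were under 0.05 without adjustment). It was -0.72 within the lower range of animal numbers (4 CB1-WT, 2 KO) and -1.02 within the higher range (2 CB1-WT, 4 KO). Without any of GABA-CB1-WT replicate 4 and GABA-CB1-KO replicates 1, 4 and 6 the adjusted p rose to between 0.0501 and 0.0572, with the difference between -0.96 and -0.80 over all 12 such fits.

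After the open field the picture was split by 1 mouse. *Slc18a2* had 2.98 CPM in the lowest of 7 CB1-WT mice, 3.82 at the median and 4.495 in the highest. The 5 GABA-CB1-KO mice had 1.93, 1.98, 2.28, 2.535 and 4.68 CPM. The highest, replicate 1, lay above every CB1-WT mouse of that state, and the other 4 lay below every one of them. The log2 difference was -0.46 (SE 0.20, adjusted p = 0.347, edgeR) with all 12 mice, and -0.76 (SE 0.13, adjusted p = 0.0611) without replicate 1. Replicate 1 was left out because of its *Slc18a2* level, so the second fit is not a separate test. *Cnr1* in that mouse was 155.3 CPM, against 100.3 to 147.1 in the other 4 and at least 336.2 in the CB1-WT mice. Of 15 lists of cell type and region markers, 10 lay outside the range of the other 4 in that mouse. In a group of 5 an ordinary mouse is often the highest or lowest. The lists are not independent, and the count was not taken for the other mice. The 10 are thus a description and do not mark the library as aberrant. CA3 and CA2 pyramidal cell markers, at 667.8 CPM, were the highest of all 48 libraries (529.6 to 595.7 in the other 4), and CA1 markers (774.9 against 813.6 to 896.9 CPM) and subiculum and cortex markers (173.8 against 208.9 to 279.8) were low. Astrocyte markers were high (5143 against 4623 to 4906 CPM) and endothelial and mural markers low (123.6 against 152.4 to 193.4). Its serotonin transporter gene *Slc6a4* (0.293 CPM against 0.0351 to 0.196) and *Tph2*, the enzyme of serotonin synthesis in neurons (1.85 against 0.782 to 1.51), were also above the other 4. *Slc6a4* had just 1 to 9 counts per library in this group. The list of monoaminergic neuron markers lay within the range of the other 4 (8.454 against 7.51 to 10.24 CPM). So did *Ddc* and *Th*, which encode enzymes of monoamine synthesis. The part of these in its *Slc18a2* level was not tested. In the comparison with all 12 mice, choroid plexus and ependyma markers were higher in KO mice in 8 of 8 (median log2 difference 2.19, 0 called), with replicate 4 at 4080 CPM.

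With both states in a single fit, *Slc18a2* was lower in GABA-CB1-KO mice by -0.68 on the log2 scale (SE 0.13, adjusted p = 0.0131, edgeR), and no other of the 32 genes passed beside 0.358% of all genes. It passed in all 24 fits that left out 1 mouse, with adjusted p between 2.23e-05 and 0.0399 (edgeR). The smallest came without open field replicate 1, with a difference of -0.83. That mouse was singled out by its *Slc18a2* level, so this value adds no support. In the fit of all mice, choroid plexus and ependyma markers were higher in 8 of 8 (median 0.73, 0 called). Of 5 tested markers of somatostatin interneurons 4 were lower, with *Crhbp* and *Sst* called, and 1 was higher. All markers of subiculum and cortex (7, median -0.10) and of endothelial and mural cells (7, -0.05) were lower, with 0 called. Dentate granule cell markers were lower in 6 of 7 (-0.19) and oligodendrocyte markers higher in 6 of 6 (0.09), with 0 called. The part of these in the *Slc18a2* result was not tested. Over the 19 mice left without the 17 libraries low in *Xkr4* the *Slc18a2* difference had the same size, -0.67, and the adjusted p was 0.0845.

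In the Glu-CB1 line the sign was the other one, with no call. In the basal state the 5 CB1-WT mice had 3.07, 3.07, 3.399, 3.82 and 4.42 CPM of *Slc18a2*, and the 7 Glu-CB1-KO mice ran from 3.36 over a median of 4.26 to 4.96, so the groups overlapped (log2 difference 0.24, SE 0.12, adjusted p = 0.999, edgeR). After the open field the difference was 0.26 (SE 0.16, adjusted p = 0.896). The 2 lines therefore differed in the basal state: the KO-WT difference of the Glu-CB1 line minus that of the GABA-CB1 line was 1.12 (SE 0.19, adjusted p = 0.00404, edgeR's test of the interaction over 24 mice). This was the only call among 32 genes tested, beside 0.279% of all genes, and it held in all 24 fits without 1 mouse. Among markers, *Crhbp* and *Npy* were called with the same sign in this contrast and *Plekhg1* with the other. All tested markers of dentate granule cells (7), subiculum and cortex (7) and microglia (6) were higher and those of oligodendrocytes (6) lower. Choroid plexus and ependyma markers were higher in 7 of 8 (median 0.73, 0 called). Of 5 tested markers of monoaminergic neurons 3 were higher and 2 lower (median 0.62, 0 called). In the basal Glu-CB1 comparison 4 of 4 of these were higher (median 0.46, 0 called). The part of these lists in the *Slc18a2* result was not tested. After the open field the same contrast was 0.72 (SE 0.26, adjusted p = 0.287) and, without GABA-CB1-KO replicate 1, 1.01 (adjusted p = 0.0250). The latter leaves out a mouse singled out by its *Slc18a2* level and adds no support. These contrasts use the same libraries as the KO-WT comparisons within each line.

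Most genes that mark monoaminergic cell bodies were low in this tissue. The serotonin transporter *Slc6a4* had 0 to 16 counts per library, the noradrenaline transporter *Slc6a2* 0 to 4, the dopamine transporter *Slc6a3* 3 to 20 and the raphe transcription factor *Fev* 0 to 2. *Th*, the rate-limiting enzyme of catecholamine synthesis, had at most 1.05 CPM, *Tph2* had 23 to 62 counts (0.782 to 2.14 CPM), and the decarboxylase *Ddc* was above *Slc18a2* at 3.97 to 7.48 CPM. Their summed level, of which *Ddc* was the largest part, was 8.40 to 10.3 CPM in basal GABA-CB1-WT mice and 8.05 to 10.3 CPM in basal GABA-CB1-KO mice, and of the 4 of 8 tested there 2 were higher, 2 lower and 0 called. The serotonergic genes were at lower means in the KO mice: *Tph2* had 1.66 ± 0.186 CPM (SD, n = 6) in CB1-WT and 1.28 ± 0.319 CPM (n = 6) in KO mice (log2 difference -0.37, SE 0.15, adjusted p = 0.570, edgeR), and *Slc6a4*, with too few counts for a test, 0.241 ± 0.151 and 0.0805 ± 0.0694 CPM. Markers of choroid plexus and ependyma went lower in 7 of 8 in that comparison (median log2 difference -0.68, 0 called), with GABA-CB1-WT mice from 59.8 to 1529 CPM and KO mice from 56.2 to 102.9. Of 5 tested somatostatin interneuron markers 4 were lower, and *Crhbp* was called (-0.44, SE 0.07, adjusted p = 0.00940, edgeR). All 6 oligodendrocyte markers were higher (median 0.17) and all 6 microglia markers lower (-0.04), with 0 called. Lower, too, were 6 of 7 markers of dentate granule cells (-0.18) and 6 of 7 of astrocytes (-0.03), with 0 called. The part of these in the *Slc18a2* result was not tested.

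*Slc18a2* lies on chromosome 19 (19:59260878-59296012, mm10, plus strand) and its annotated start lies within the letters TGACGTCA. The promoters of the 3 genes that were called are shown from 150 bases before to 10 bases after the start site (RefSeq, GRCm38.p6, each in the direction of transcription). The start of the *Adra2a* entry lies downstream of the gene start deposited with the counts (54045182). Capitals mark the cyclic AMP response element motif (CRE) TGACGTCA in *Slc18a2* (chr19:59260728-59260887, plus strand), the motif TATAAA in *Adra2a* (chr19:54045109-54045268, plus strand) and the E-box CANNTG in *Hrh3* (chr2:180104398-180104557, minus strand).
Slc18a2: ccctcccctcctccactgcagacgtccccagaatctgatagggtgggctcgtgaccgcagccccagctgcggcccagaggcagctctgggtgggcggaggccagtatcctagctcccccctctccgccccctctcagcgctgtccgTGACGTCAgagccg
Adra2a: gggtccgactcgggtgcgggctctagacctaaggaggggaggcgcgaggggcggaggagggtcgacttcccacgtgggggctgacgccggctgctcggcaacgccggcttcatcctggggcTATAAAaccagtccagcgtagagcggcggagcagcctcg
Hrh3: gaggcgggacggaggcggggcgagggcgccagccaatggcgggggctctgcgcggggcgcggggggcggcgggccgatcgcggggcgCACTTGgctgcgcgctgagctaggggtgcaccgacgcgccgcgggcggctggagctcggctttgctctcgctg

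Promoters of 300 bases (250 before to 50 after the start) were listed for 29 of the 38 genes, in 37 entries. TGACGTCA, searched on both strands, was found in *Slc18a2* alone among them, from base -4 to base 4 of the start, and in 1.79% of 32851 promoters of all genes. TATAAA was found in *Adra2a* alone, from -29 to -24, and in 13.6% of all promoters. The shorter TGACG, which lies within TGACGTCA on each strand, was found in *Adra2a*, *Adrb1*, *Htr7* and *Slc18a2* (20.8% of all promoters). TGANTCA (AP-1) was found in *Adra1b*, *Hrh1*, *Htr2b* and *Htr2c* (7.81% of all) and the EGR motif GCGGGGGCG in *Hrh1* (2.91% of all). CANNTG was found in 13 of the 29 genes, in 17 of the 37 entries, beside 72.3% of all promoters. A match of letters is a description of the sequence and not a binding site.

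*Hrh3*, which encodes the histamine receptor that restrains transmitter release from axon terminals, was higher in Glu-CB1-KO mice after the open field. The 5 CB1-WT mice had 30.6, 30.9, 34.8, 41.8 and 42.2 CPM. The 7 Glu-CB1-KO mice had 44.9 CPM in the lowest, 51.2 at the median and 55.2 in the highest. No KO mouse overlapped with a CB1-WT mouse. The log2 difference was 0.49 (SE 0.08, Benjamini-Hochberg adjusted p = 0.0185 by the quasi-likelihood test of edgeR), the only call among the 31 genes tested in this comparison, beside 0.272% of all genes (4 of the 31, and 6.97% of all genes, were under 0.05 without adjustment). Within the 3 ranges of animal numbers it was 0.295 (2 CB1-WT, 4 KO), 0.75 (1 and 2) and 0.46 (2 and 1). Among libraries low in *Xkr4* it was 0.256 (2 CB1-WT, 5 KO), and among the others 0.695 (3 CB1-WT, 2 KO). The adjusted p rose to between 0.0507 and 0.0668 in 5 of 12 fits without 1 mouse (Glu-CB1-WT replicates 3 and 4, Glu-CB1-KO replicates 1, 2 and 3), and to 0.200 when all 48 libraries shared an estimate of the spread.

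*Hrh3* varied more in the basal groups, where the SD was 7.21 to 10.5 CPM, than after the open field (2.91 to 5.93). In the basal state it ran from 31.96 to 56.6 CPM in the 5 Glu-CB1-WT mice and from 31.35 to 59.5 in the 7 Glu-CB1-KO mice, with a log2 difference of 0.20 that did not pass. The change of the KO-WT difference with the open field was 0.30 (SE 0.20, adjusted p = 1.00, edgeR), so the difference was not shown to be particular to that state. With both states together the difference was 0.34 (SE 0.10, adjusted p = 0.219). For GABA-CB1 it was 0.11 in basal mice and 0.14 after the open field, neither called, and the contrast of the 2 lines after the open field was 0.36 (SE 0.12, adjusted p = 0.221).

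Cell type markers moved in the comparison in which *Hrh3* passed. Of 8 tested markers of CA3 and CA2 pyramidal cells, 7 were lower in Glu-CB1-KO mice after the open field (median log2 difference -0.19), and *Iyd* was called (-0.56, SE 0.11, adjusted p = 0.0463, edgeR). Their summed level was 544.1 to 656.1 CPM in CB1-WT and 505.5 to 561.7 in KO mice. Of 5 tested markers of somatostatin interneurons, all 5 were higher (median 0.16), and *Crhbp*, which encodes a protein that binds corticotropin-releasing hormone, was called (0.61, SE 0.10, adjusted p = 0.0174, edgeR), with summed levels of 251.4 to 305.5 and 304.9 to 354.5 CPM. The interneuron gene *Npy* was called higher (0.55, SE 0.09, adjusted p = 0.0185), and the thalamus markers *Plekhg1* (-0.42, SE 0.08, adjusted p = 0.0424) and *Prkcd* (-0.58, SE 0.07, adjusted p = 0.00309) were called lower (edgeR). All tested markers of dentate granule cells (7, median -0.05), oligodendrocytes (6, -0.11) and microglia (6, -0.06) were lower, with 0 called. The part of these in the *Hrh3* result was not tested.

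**Figure D2:**
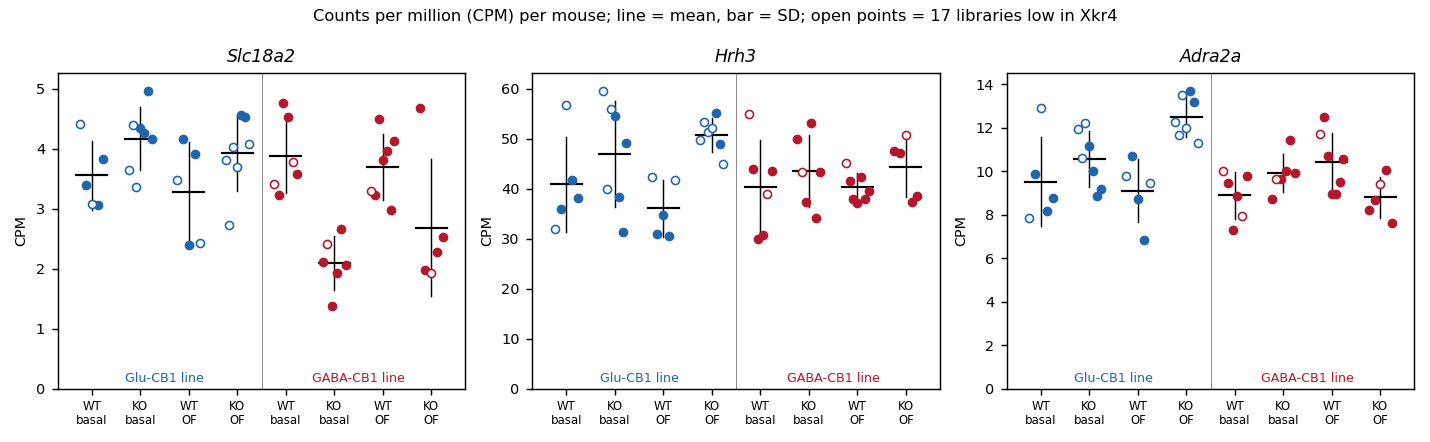
CPM of *Slc18a2*, *Hrh3* and *Adra2a* in each mouse (points), by line, genotype and state; horizontal lines are group means, vertical bars SD, and open points the 17 libraries low in *Xkr4*. *Slc18a2* is lower in GABA-CB1-KO mice apart from 1 mouse at 4.68 CPM after the open field, and *Hrh3* and *Adra2a* of Glu-CB1-KO mice lie above all CB1-WT mice of the line after the open field.

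*Adra2a*, the noradrenaline receptor that acts as autoreceptor and as heteroreceptor, went in opposite directions in the 2 lines after the open field. In the Glu-CB1 line the 5 CB1-WT mice had 6.84, 8.73, 9.47, 9.78 and 10.7 CPM, and the 7 Glu-CB1-KO mice 11.3 in the lowest, 12.25 at the median and 13.7 in the highest, without overlap. In the GABA-CB1 line the 7 CB1-WT mice ran from 8.93 over a median of 10.6 to 12.5 CPM, and the 5 GABA-CB1-KO mice had 7.60, 8.23, 8.67, 9.40 and 10.0 CPM, with overlap. Neither difference passed within its line: it was 0.46 for Glu-CB1 (SE 0.09, adjusted p = 0.0597, edgeR) and -0.24 for GABA-CB1 (SE 0.10, adjusted p = 0.319). The former passed in 4 of 9 other settings, among them DESeq2 (adjusted p = 0.000710), and in 1 of 12 fits without 1 mouse (Glu-CB1-WT replicate 2, adjusted p = 0.0306). The difference between them was 0.70 (SE 0.14, adjusted p = 0.0147, edgeR's interaction test), the only call among 32 genes tested, beside 0.568% of all genes (8 of the 32, and 10.8% of all genes, were under 0.05 without adjustment). It held in all 24 fits without 1 mouse. Over the mice left without the 17 libraries low in *Xkr4*, of which only 2 were Glu-CB1-KO mice, it was 0.86 with an adjusted p of 0.193. The somatostatin interneuron markers *Crhbp* and *Sst* were called in the same contrast (1.01 and 0.78, adjusted p = 0.000947 and 0.00108, edgeR), as were *Npy* (0.76), *Tac1* (0.96) and *Prkcd* (-0.62). Markers of CA3 and CA2 pyramidal cells (8 of 8, median -0.29), choroid plexus and ependyma (8 of 8, -2.23) and oligodendrocytes (6 of 6, -0.11) were lower in it, with 0 called. The part of these in the *Adra2a* result was not tested. In the basal state *Adra2a* did not separate: its KO-WT difference was 0.15 for Glu-CB1 and 0.16 for GABA-CB1.

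Other receptors differed by less, or less evenly. In the basal state none of 32 genes passed between Glu-CB1-KO and CB1-WT mice by edgeR or by DESeq2, and 0 of them were under 0.05 without adjustment (0.0198% of all genes passed, and 3.57% were under 0.05). The differences ran from -0.27 (*Adrb3*) to 0.31 (*Drd1*), with a median of 0.03 beside -0.000912 over all genes. With both states together no gene passed by edgeR (0.274% of all genes did), 4 were under 0.05 without adjustment (7.31% of all genes), and DESeq2 called *Htr2a*. *Htr2a*, the cortical serotonin receptor on which classical psychedelics act, had 8.81, 9.97, 10.2, 10.5 and 10.7 CPM in CB1-WT mice after the open field, against 10.8 in the lowest, 13.7 at the median and 20.8 in the highest Glu-CB1-KO mouse. These groups did not overlap, but in the basal state they did (9.46 to 12.1 against 8.59 to 16.1). The log2 difference was 0.47 after the open field (SE 0.13, adjusted p = 0.268, edgeR) and 0.36 over both states (SE 0.10, adjusted p = 0.139).

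Among GABA-CB1 mice, *Htr1b*, a presynaptic serotonin receptor, came next to *Slc18a2* in the basal state. The 6 CB1-WT mice ran from 3.31 over a median of 3.51 to 4.39 CPM, and the 6 GABA-CB1-KO mice from 4.04 over 4.98 to 6.09, overlapping at the edge (log2 difference 0.43, SE 0.10, adjusted p = 0.145, edgeR). DESeq2 called it (adjusted p = 0.0270). *Hrh1* was at -0.27 (SE 0.08, adjusted p = 0.382) in the same comparison and at -0.19 over both states (SE 0.07, adjusted p = 0.334, edgeR). *Htr2c* stood out by its spread: 41.8 to 69.1 CPM in the CB1-WT mice and 67.1 to 73.1 in the GABA-CB1-KO mice, overlapping at the edge (0.27, SE 0.10, adjusted p = 0.489). After the open field none of 31 genes passed by edgeR or DESeq2, and 7 were under 0.05 without adjustment (13.2% of all genes). Of all genes 3 passed by edgeR (0.0199%) and 141 by DESeq2. *Hrh2* was lowest by p there: 2.84 to 3.31 CPM in 7 CB1-WT mice and 2.20 to 2.73 in 5 KO mice, which did not overlap (-0.32, SE 0.09, adjusted p = 0.230, edgeR). *Adra1d* was at 0.14 (SE 0.05, adjusted p = 0.267).

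**Figure D3:**
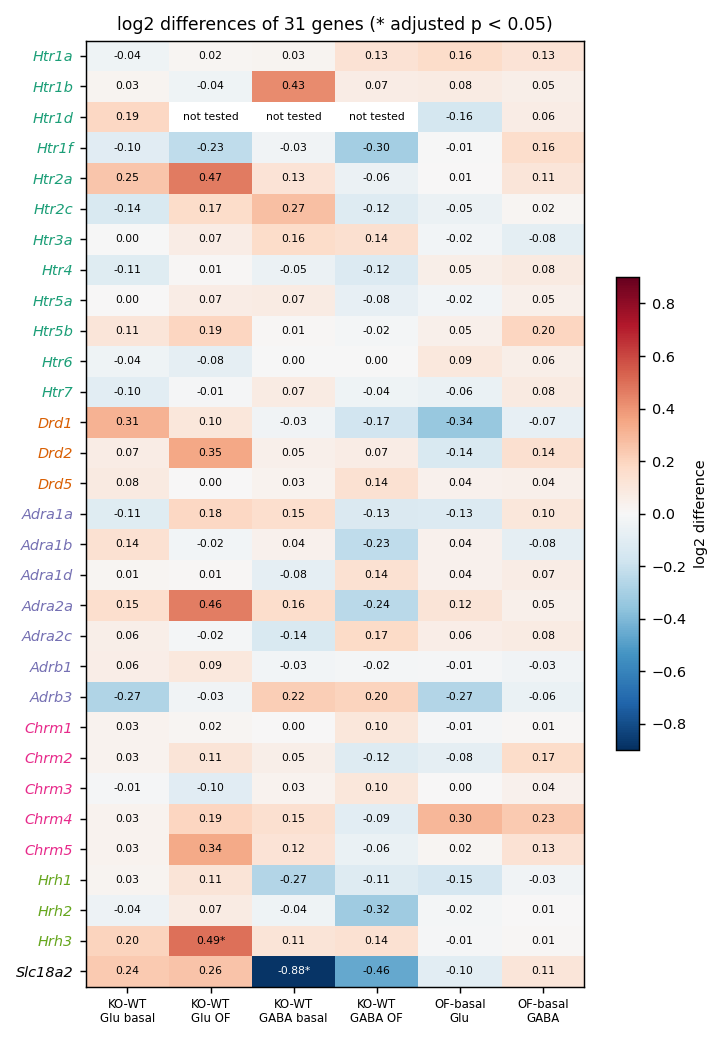
log2 differences of 31 of the 32 tested genes (rows, colored by family) in the 4 KO-WT comparisons within a state and in the 2 comparisons of open field (OF) with basal, from edgeR; asterisks mark an adjusted p under 0.05 over all genes. The asterisks are at *Slc18a2* in the basal GABA-CB1 line (-0.88) and at *Hrh3* in the Glu-CB1 line after the open field (0.49).

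The open field itself moved no gene of these families past the threshold by edgeR in either line. Per the paper, tissue was isolated at a single time with an interval after the exposure, so earlier or later changes were not measured. In the Glu-CB1 line, with genotype in the fit, 15 of 32 genes were higher and 17 lower than in the basal state, 3 were under 0.05 without adjustment (13.9% of all genes), and 1.80% of all genes passed (276 genes). DESeq2 called 1 of them, *Chrm4*. In the GABA-CB1 line 25 were higher and 7 lower, 4 were under 0.05 without adjustment (12.1% of all genes), DESeq2 called 0, and 0.963% of all genes passed. Their median differences were -0.01 and 0.05.

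*Chrm4*, the muscarinic receptor that lowers cyclic AMP, had the smallest p in both lines. In the Glu-CB1 line its mean was 19.5 ± 2.58 CPM (SD, n = 5) in CB1-WT and 19.98 ± 4.50 (n = 7) in KO mice in the basal state, against 22.55 ± 3.47 (n = 5) and 25.8 ± 3.398 (n = 7) after the open field. In the GABA-CB1 line it was 19.2 ± 3.07 (n = 6) and 21.3 ± 2.70 (n = 6), against 24.3 ± 2.69 (n = 7) and 22.8 ± 2.17 (n = 5). The ranges overlapped in each genotype. The log2 differences were 0.30 (SE 0.09, adjusted p = 0.0775, edgeR) and 0.23 (SE 0.07, adjusted p = 0.134). Without Glu-CB1-KO basal replicate 3, which had 28.6 CPM, the former passed with an adjusted p of 0.0135, and without Glu-CB1-WT basal replicate 3 with 0.0407. *Htr1a*, the inhibitory serotonin receptor of pyramidal cells, came next in both, at 0.16 (SE 0.06, adjusted p = 0.188) and 0.13 (SE 0.04, adjusted p = 0.165). *Drd1* was at -0.34 in the Glu-CB1 line (SE 0.14, adjusted p = 0.250), where its Glu-CB1-KO basal mice ran from 2.37 to 6.245 CPM.

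Whether the KO-WT difference changed with the open field was tested in each line. None of the 32 genes passed by edgeR or DESeq2 in the Glu-CB1 line, and 0 were under 0.05 without adjustment (2.47% of all genes). In the GABA-CB1 line none passed by edgeR, 7 were under 0.05 without adjustment (beside 14.6% of all genes), and DESeq2 called *Adra1d*. No gene at all passed edgeR's test in either line (0%). *Adra1d* was at 52.3 to 57.2 CPM in basal CB1-WT and 50.7 to 52.9 CPM in basal GABA-CB1-KO mice, and at 47.8 to 56.8 and 56.3 to 64.4 after the open field. Its KO-WT difference thus went from -0.08 to 0.14, a change of 0.22 (SE 0.05, adjusted p = 0.198, edgeR). For *Adra2a* the change was -0.40 (SE 0.13, adjusted p = 0.220), for *Adra2c* 0.31 (SE 0.11, adjusted p = 0.227) and for *Htr2c* -0.39 (SE 0.15, adjusted p = 0.257). In the Glu-CB1 line the changes with the smallest p were those of *Adra2a* (0.31, SE 0.16) and *Adra1a* (0.30, SE 0.19), both with adjusted p = 1.00.

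**Figure D4:**
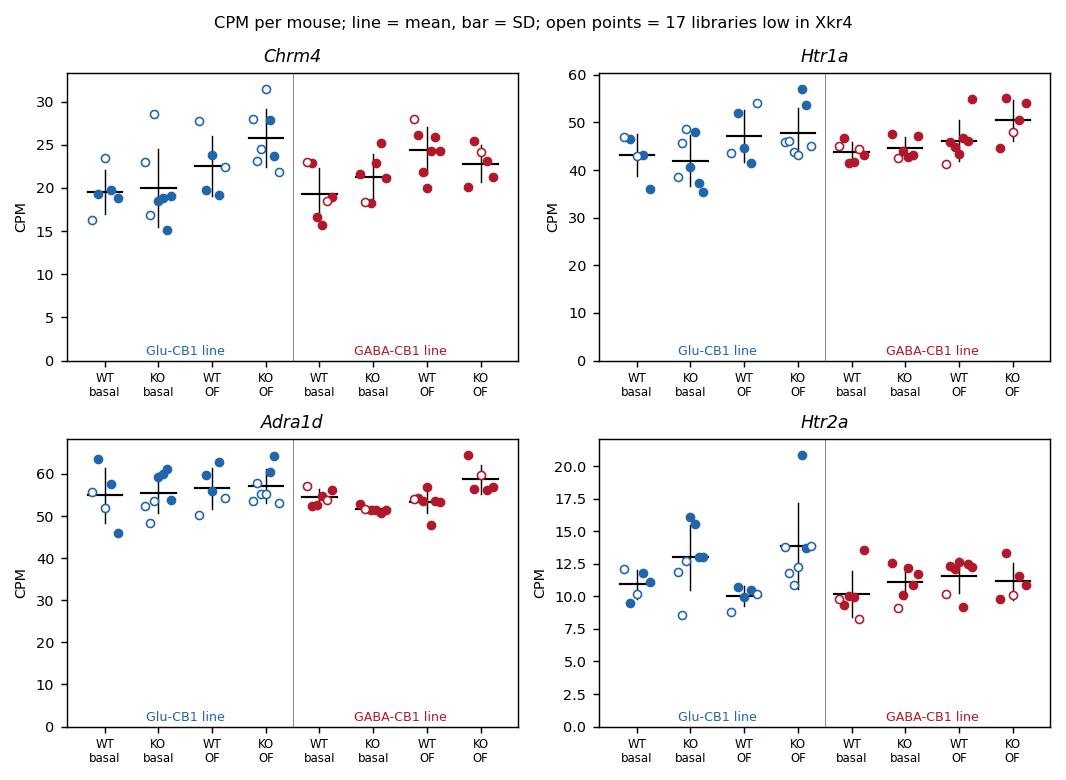
CPM of *Chrm4*, *Htr1a*, *Adra1d* and *Htr2a* in each mouse (points), by line, genotype and state; horizontal lines are group means, vertical bars SD, and open points the 17 libraries low in *Xkr4*. *Chrm4* groups overlap between states in both lines, and 1 Glu-CB1-KO mouse stands at 20.8 CPM of *Htr2a* after the open field.

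Genes that make, carry, break down or transduce these transmitters moved little. Of 28 genes of monoamine and acetylcholine synthesis, transport and breakdown, 19 were tested in each KO-WT comparison within a state, and the only call among these 4 comparisons was *Ache*, which encodes acetylcholinesterase. It had 57.6 CPM in the lowest, 59.1 at the median and 62.2 in the highest of 6 CB1-WT mice, and 48.7, 53.0 and 55.1 in the 6 basal GABA-CB1-KO mice, without overlap (log2 difference -0.19, SE 0.04, adjusted p = 0.0433, edgeR). It passed in 1 of 12 fits without 1 mouse, with adjusted p between 0.0493 and 0.135 over them. After the open field 7 CB1-WT mice had 53.8 CPM in the lowest, 57.7 at the median and 66.2 in the highest, 4 GABA-CB1-KO mice had 48.2 to 54.8, and KO replicate 1, the mouse that was also high in *Slc18a2*, had 83.0. The difference was -0.00334 (SE 0.11, adjusted p = 0.993) with all 12 mice and -0.17 (SE 0.06, adjusted p = 0.291, edgeR) without that mouse. *Maoa* (43.15 CPM over all mice) and *Hnmt* (27.6), enzymes that degrade monoamines and histamine, were well measured and not called. The plasma esterase gene *Bche* was lower after the open field in the Glu-CB1 line (-0.31, SE 0.08, adjusted p = 0.0448, edgeR), and passed in 8 of 24 fits without 1 mouse. Of 42 genes of G proteins and their effectors, 42 were tested and 0 called in each KO-WT comparison within a state and in each open field comparison, with medians between -0.02 and 0.01. Of 22 genes of receptor regulators, 20 were tested and 0 called there. *Rgs2*, a regulator of G protein signaling, was called in the contrast of the 2 lines in the basal state (0.42, SE 0.09, adjusted p = 0.0461, edgeR), with 0.22 for Glu-CB1 and -0.20 for GABA-CB1, and passed in 5 of 24 fits without 1 mouse.

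The levels of several receptors moved with marker lists of cell types and regions. For the 30 genes with a mean of at least 1 CPM, log2 CPM minus the group mean was compared with the mean of each of 15 marker lists over the 48 mice, giving 450 pairs. By Pearson's r 26 pairs passed (permutation within groups, adjusted p under 0.05), 22 by Spearman's rho and 17 by both. The share of all genes that would pass against these lists was not computed. The counts therefore do not show a relation particular to these receptors. Since the mice form 2 sets by *Xkr4*, r is also given for the 31 and for 14 of the 17 (those in groups with at least 2 such libraries). *Htr5a* rose and fell with somatostatin interneuron markers: r = 0.656 and rho = 0.679 (permutation p = 1e-05 for both, the smallest 100000 resamples can give; adjusted p = 0.00225), 0.64 without the 2 mice farthest out, and 0.738 and 0.775 within the 2 sets. *Adra1a* went with the same list (r = 0.594, rho = 0.629, permutation adjusted p = 0.0055, 0.683 and 0.856 within the sets).

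*Slc18a2* and *Hrh3* went opposite ways with markers of CA3 and CA2 pyramidal cells. For *Slc18a2* r was 0.57 and rho 0.581 (permutation p = 2e-05 and 0.00012), 0.569 without the 2 farthest mice, and 0.506 and 0.631 within the sets. For *Hrh3* r was -0.679 and rho -0.608 (permutation p = 1e-05 and 0.00013), -0.579 without the 2 farthest mice, and -0.46 and -0.874 within the sets. Beside its call in the basal GABA-CB1 line, the summed level of this list was 523.6 to 633.4 CPM in CB1-WT and 523.7 to 583.4 in GABA-CB1-KO mice, and 5 of 8 of its genes were higher and 3 lower, with *Bok* called lower. *Adra1d* went against subiculum and cortex markers (r = -0.637, rho = -0.69, permutation p = 2e-05 and 1e-05, -0.69 and -0.282 within the sets) and *Htr7* against thalamus markers (r = -0.595, permutation adjusted p = 0.0045, -0.697 and -0.379 within the sets). *Htr1b* went with CA1 markers (r = 0.555, permutation adjusted p = 0.0045, 0.63 and 0.538 within the sets).

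**Figure D5:**
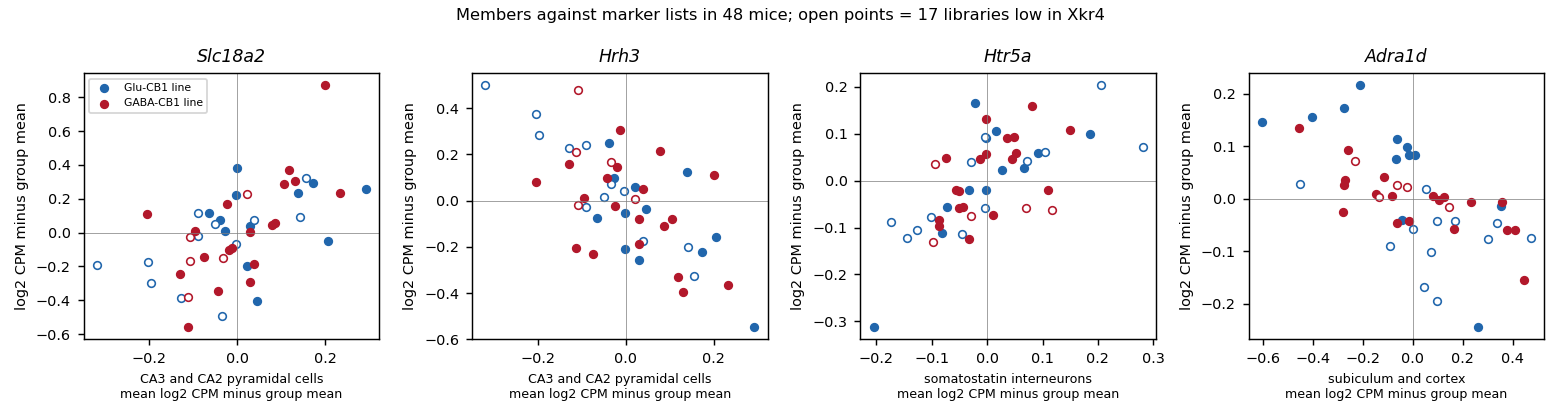
log2 CPM minus group mean of *Slc18a2*, *Hrh3*, *Htr5a* and *Adra1d* (vertical axes) against the mean of a marker list on the same scale (horizontal axes) in 48 mice, colored by line; open points are the 17 libraries low in *Xkr4*. *Slc18a2* goes up with CA3 and CA2 markers (r = 0.57) and *Hrh3* goes down with them (r = -0.679).

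Of the 450 pairs, 4 passed over the 31 mice alone and 0 over the 14. In the basal mice alone 19 pairs passed and after the open field 0. *Htr1f* went with markers of CCK, VIP and neurogliaform interneurons over all mice (r = 0.557) and in the 31 (0.339) but not in the 14 (-0.114).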

How the data were processed

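RNA-sequencing was done on hippocampal CA tissue of 48 mice. Per the labels and the paper's methods, the authors amplified RNA (NuGEN Ovation), sequenced single reads, trimmed them with bbduk, aligned them to mm10 with STAR 2.6.0a and counted them per gene with featureCounts 1.6.2 in reverse-strand mode. They deposited raw counts per gene for 24421 genes, without normalization.

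Groups were taken from the labels. edgeR 4.0.16 (R 4.3.3) was run on the counts with TMM normalization, filterByExpr and the quasi-likelihood test over all genes, with Benjamini-Hochberg adjustment and a threshold of 0.05; each fit held just the groups compared. The SE given with an edgeR difference is its absolute log2 value divided by the square root of the test's F statistic. It restates the test and is not a separate measure of spread. CPM are TMM-normalized over 48 libraries, and RPKM are CPM per kilobase of exon. DESeq2 1.42.0, RLE factors, other filters, all 48 libraries in a fit, the range of animal numbers, the replicate number as block and each library left out were alternatives; the first principal component as covariate and leaving out 17 libraries, and each library for 3 pathway genes, were added after the data were seen. The tests were tested on simulated data.

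Replicate numbers do not pair mice: the deviations of same-numbered CB1-WT and KO mice correlated between -0.335 and 0.317 over 21 pairs. No 2 libraries of a group were duplicates over 123 pairs (lowest chi-square per degree of freedom 2.93). Full statistics are given for genes called in any of 12 contrasts or with the 2 smallest p-values in a contrast; genes named beyond that were chosen after their values were seen. The genes, lists and tests were chosen with earlier results of these data known. The values of 1 of the 38 genes and of 1 pathway gene are not reported here. Marker and pathway lists were matched by symbol; promoter sequences are RefSeq entries for GRCm38.p6. Counting error is the lower limit of the error, since no molecular identifiers were used. No measurement column was left unused.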

Additional observations from a re-analysis of the deposited data

Results flagged for a closer look

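In the 12 genes given by mouse, 96 groups of 5 to 7 mice were searched for a mouse far from the rest by Dixon's ratio at the 95% level, which chance passes in about 1 of 20 groups, and 6 were found. *Slc18a2* stood at 4.68 CPM in GABA-CB1-KO open field replicate 1, with the nearest of the other 4 at 2.535. *Htr2a* stood at 20.8 CPM in Glu-CB1-KO open field replicate 5 (next 13.85) and at 13.55 CPM in GABA-CB1-WT basal replicate 6 (next 10.04). *Htr1a* stood at 54.98 CPM in GABA-CB1-WT open field replicate 7 (next 46.73). Low values were those of *Adra1d* in GABA-CB1-WT open field replicate 5 (47.83 CPM, next 53.39) and of *Drd1* in Glu-CB1-KO open field replicate 6 (1.77 CPM, next 2.90).

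A difference between the 2 lines in the KO-WT comparison was found for 2 genes by the interaction test: 1.12 on the log2 scale for *Slc18a2* in the basal state and 0.70 for *Adra2a* after the open field. In both, the Glu-CB1 line was on the higher side and the GABA-CB1 line on the lower.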

How the results depend on the processing

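The counts of receptor and transporter genes that passed depended on the setting in several comparisons. DESeq2 called 2 genes in place of 1 for Glu-CB1-KO against CB1-WT after the open field (*Adra2a* and *Hrh3*) and for GABA-CB1-KO in the basal state (*Htr1b* and *Slc18a2*), and 1 in place of 0 for the Glu-CB1 line over both states (*Htr2a*), for the open field in the Glu-CB1 line (*Chrm4*) and for the change with the open field in the GABA-CB1 line (*Adra1d*). The range of animal numbers or the first principal component as covariate gave 2 in the Glu-CB1 line after the open field, and the principal component gave 2 in the contrast of the lines after the open field. Without the 17 libraries low in *Xkr4*, 0 passed in the GABA-CB1 line over both states and 0 in the contrast of the lines after the open field. Of 450 relations with marker lists, where 26 passed, 0 did so in open field libraries only, 4 without the 17 libraries and 0 in 14 of the 17. With all 48 libraries in a fit, the gene called in the Glu-CB1 line after the open field was *Adra2a* (adjusted p = 0.0476) in place of *Hrh3*. Over all genes DESeq2, which gave p-values for more genes, called 7 in place of 3 in the basal Glu-CB1 line. There it called 124 in place of 41 after the open field and 101 in place of 42 over both states. For the open field in that line it called 502 in place of 276. In the GABA-CB1 line it called 102 in place of 37 in the basal state and 141 in place of 3 after the open field. Over both states of that line it called 129 in place of 55. For the open field it called 269 in place of 148, and for the change with it 62 in place of 0. Between the lines it called 75 in place of 43 in the basal state and 195 in place of 87 after the open field. In the Glu-CB1 line, edgeR without a filter beyond 1 count called 3 of 19904 genes in the basal state and 41 of 19894 after the open field. The cause of these changes was not tested.

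With the replicate number as a block, which does not pair the mice, 0 passed in each of the 5 comparisons with a call: adjusted p was 0.206 for *Slc18a2* in the basal GABA-CB1 line, 0.128 over both states and 0.113 between the lines, 0.161 for *Hrh3* and 0.135 for *Adra2a*.

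With 1 library left out, the count ran from 0 to 2 in the Glu-CB1 line after the open field and over both states, from 0 to 1 for the open field in that line and in the basal GABA-CB1 line, and from 1 to 2 in the contrast of the lines after the open field. Over both states in the Glu-CB1 line, *Htr2a* passed without Glu-CB1-KO basal replicate 2 (adjusted p = 0.0284) and *Adra2a* without Glu-CB1-WT basal replicate 3 (0.00977). It stayed at 1 in the GABA-CB1 line over both states and in the basal contrast of the lines, and at 0 in the other 5 comparisons. For 28 single values under 766 alternatives, the call was lost in 63 and gained in 14. Leaving out each library for *Ache*, *Bche* and *Rgs2* was added after the data were seen. Of the calls lost, 46 were theirs, and the 6 reversals were those of *Ache* after the open field in the GABA-CB1 line, which ran from -0.17 to 0.0569 around -0.00334. The others kept their direction and side of the threshold. Low counts limit *Slc18a2* (33 to 165 per library) and left 6 genes without a test.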

Other observations

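*Slc18a2*, *Adra2a* and *Adrb1* share a stretch of chromosome 19 (gene starts deposited with the counts at 59260878, 54045182 and 56722372, mm10), with *Htr7* and *Chrm1* elsewhere on it. In the basal GABA-CB1 line, where *Slc18a2* was at -0.88, *Adra2a* was at 0.16, *Adrb1* at -0.03, *Htr7* at 0.07 and *Chrm1* at 0.00224 on the log2 scale, none of these 4 called.

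*Htr2a* went with markers of CCK, VIP and neurogliaform interneurons (r = 0.574, permutation adjusted p = 0.00736; rho = 0.402, adjusted p = 0.0881), at 0.39 and 0.445 in the 31 and 14 mice of the 2 sets. *Htr2c* went against microglia markers (r = -0.517, permutation adjusted p = 0.0355; -0.506 and -0.664 within the sets), and *Chrm4* against astrocyte markers (r = -0.491, permutation adjusted p = 0.0117; -0.453 and -0.763 within the sets).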
